A study of Mus musculus with 2 samples.

Results

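A minority of the mouse hepatocytes grown in induction medium carried transcripts of mitosis genes, and these cells are described here. They were chosen by a fixed rule, namely at least 2 of 19 mitosis genes detected with 1 or more UMI each (a UMI, or unique molecular identifier, stands for 1 captured RNA molecule) in a cell with at least 500 detected genes and at most 25% mitochondrial UMIs. Of 1245 induction cells that passed the filter, 120 met the rule, a share of 9.64% (exact Clopper-Pearson 95% interval 8.06 to 11.4%). They are called mitosis-positive cells below. The 1032 induction cells with none of the 19 genes served as comparison and are called mitosis-negative, and 93 cells held 1 gene. Because the 19 genes chose the cells, their levels are given as a description only.

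The study cultured primary hepatocytes from C57BL/6 mouse liver inside growth-factor-reduced Matrigel, a gelled basement membrane extract, and profiled 1 droplet library per medium. Induction medium held dexamethasone (3 uM), a synthetic glucocorticoid. Expansion medium held CHIR99021 (3 uM), an inhibitor of GSK3 that switches on Wnt signalling, and the cytokine TNF (100 ng/mL). Both media held EGF (25 ng/mL) and HGF (50 ng/mL), which are hepatocyte mitogens, with Y27632 (10 uM, a ROCK inhibitor), A83-01 (1 uM, an inhibitor of TGF-beta receptor kinases), nicotinamide (100 mM) and N-acetylcysteine (1.25 mM). The induction cells therefore kept growth factors and inhibitors in their medium. The labels give neither the sex nor the number of the animals, nor an earlier time point, so whether the mitosis-positive cells had already been dividing before induction was not measured.

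As background, a dividing cell copies its DNA in S phase, using helicases and polymerases, and then builds a spindle to separate the chromosomes in mitosis. Transcripts of the 2 phases are made in successive waves, the earlier controlled by E2F factors and the later by the DREAM and MuvB complexes with B-Myb and FoxM1, through CHR and CCAAT elements near the start sites. Adult hepatocytes are mostly quiescent, and re-enter the cycle after liver injury or when cultured with mitogens, often with lower expression of liver-specific genes.

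The kept induction cells held 9201887 UMIs and the 1191 kept expansion cells 29390000, so that levels are given as CPM (UMIs of a gene per 1000000 UMIs) over cells summed by group. With 1 library per medium there was no replicate, no test was made, and all intervals cover counting error only. Mitosis-positive cells were deeper (median 9693 UMIs and 2596 genes) than mitosis-negative cells (median 6528 UMIs and 1944 genes), with median mitochondrial shares of 5.97% and 6.91%. Detection of a rare transcript grows with depth. With the induction cells split by UMIs into 4 equal bins, from the lowest to the highest, 5.47%, 4.50%, 7.72% and 20.8% met the rule. After each cell was thinned at random to 2000 UMIs, which left out 14 shallower cells, 84 of 1231 met it (6.82%, 5.48 to 8.38%).

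Promoter sequences of the marker genes are shown because so many of them carry the 2 elements named above. RefSeq (GRCm38.p6) held a promoter, from 250 bases before to 50 after the start, for 16 of the 19 genes. The letters CCAAT, on either strand, were found in 14 of the 16 (87.5%), against 37.4% of all 32851 promoters of that length. The letters TTTGAA, the core of the CHR element, were found in 11 of 16 (68.8%) against 17.9%, and both stood together in 11 of 16 against 6.95%. Below, the 150 bases before the start are written 5′ to 3′ on the gene's strand. Capitals mark CCAAT or its reverse complement ATTGG, and TTTGAA or its reverse complement TTCAAA. The windows are Top2a (chr11:99024190-99024339, minus strand), Kif11 (chr19:37376232-37376381, plus strand), Mki67 (chr7:135716380-135716529, minus strand) and Hmmr (chr11:40733438-40733587, minus strand).
Top2a: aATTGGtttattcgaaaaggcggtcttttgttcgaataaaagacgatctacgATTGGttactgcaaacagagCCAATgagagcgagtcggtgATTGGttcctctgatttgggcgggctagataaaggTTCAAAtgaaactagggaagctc
Kif11: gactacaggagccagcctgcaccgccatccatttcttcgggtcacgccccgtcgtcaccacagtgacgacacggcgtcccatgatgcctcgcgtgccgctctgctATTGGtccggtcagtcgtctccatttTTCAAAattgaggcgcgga
Mki67: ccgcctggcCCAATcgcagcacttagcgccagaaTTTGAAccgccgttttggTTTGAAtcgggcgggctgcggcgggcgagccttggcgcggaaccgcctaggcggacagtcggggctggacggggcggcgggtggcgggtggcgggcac
Hmmr: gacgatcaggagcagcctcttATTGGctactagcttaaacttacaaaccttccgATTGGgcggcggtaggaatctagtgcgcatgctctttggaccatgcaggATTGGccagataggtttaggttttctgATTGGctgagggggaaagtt
The Top2a window held 4 CCAAT boxes and 1 CHR core, Kif11 1 of each, Mki67 1 CCAAT box and 2 CHR cores, and Hmmr 4 CCAAT boxes. The shares above are for the longer promoters. Within these 150 bases the CHR core was found also for Cdc20, Cdk1 and Ube2c, and for no other marker gene with a promoter. Birc5 and Nusap1 held neither element. A match is a stretch of letters and not a measured binding site. Over 65 other G2 and mitosis genes, of which 53 matched 60 promoters, 55.0% of the promoters held both. DNA replication genes held both in 9.09%, with the CHR core in 10.9%, and genes of secreted hepatocyte proteins held both in 6.06%. Hepatocyte enzyme genes held both in 13.9%, with the CHR core in 22.2%. The letters CCAAT alone were less particular to mitosis genes. They were found in 58.2% of replication, 45.5% of secreted protein and 58.3% of enzyme promoters.

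All 19 marker genes were found in mitosis-positive cells. The number per cell ran from 2 to 16 with a median of 8, and 36 cells held 2 to 4 genes, 29 held 5 to 8 and 55 held 9 or more. Most of the cells were therefore well inside the rule, and 84 of 120 (70.0%) held at least 5 genes. The most abundant was Ube2c, the ubiquitin-conjugating enzyme of the anaphase-promoting complex, at 240.5 CPM (exact Poisson interval 213.5 to 269.9) and with a UMI in 81 of 120 cells. Top2a, which untangles DNA before chromosomes separate, stood at 209.7 CPM (184.6 to 237.2) and was seen in the most cells, 88. Birc5 (survivin, a chromosomal passenger protein) stood at 201.4 CPM in 87 cells.

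Among the cyclins, Ccna2 stood at 136.5 CPM, Ccnb2 at 99.0 and Ccnb1 at 64.9, with their kinase Cdk1 at 65.7 CPM. Mki67, the Ki-67 protein that coats mitotic chromosomes, stood at 108.2 CPM in 64 cells. Spindle and kinetochore genes ran from 65.7 CPM for Cenpf to 26.6 for Cenpe, with Hmmr at 62.4, Nusap1 at 58.2, Tpx2 at 49.9 and the spindle motor Kif11 at 31.6. Among mitotic kinases Aurkb stood at 31.6, Aurka at 30.8, Plk1 at 25.8 and Bub1, the lowest of the 19, at 19.1 CPM (12.1 to 28.7). Cdc20, which activates the anaphase-promoting complex, stood at 47.4 CPM in 38 cells. These CPM values are not corrected for transcript length, so their order is one of captured molecules.

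**Figure D1:**
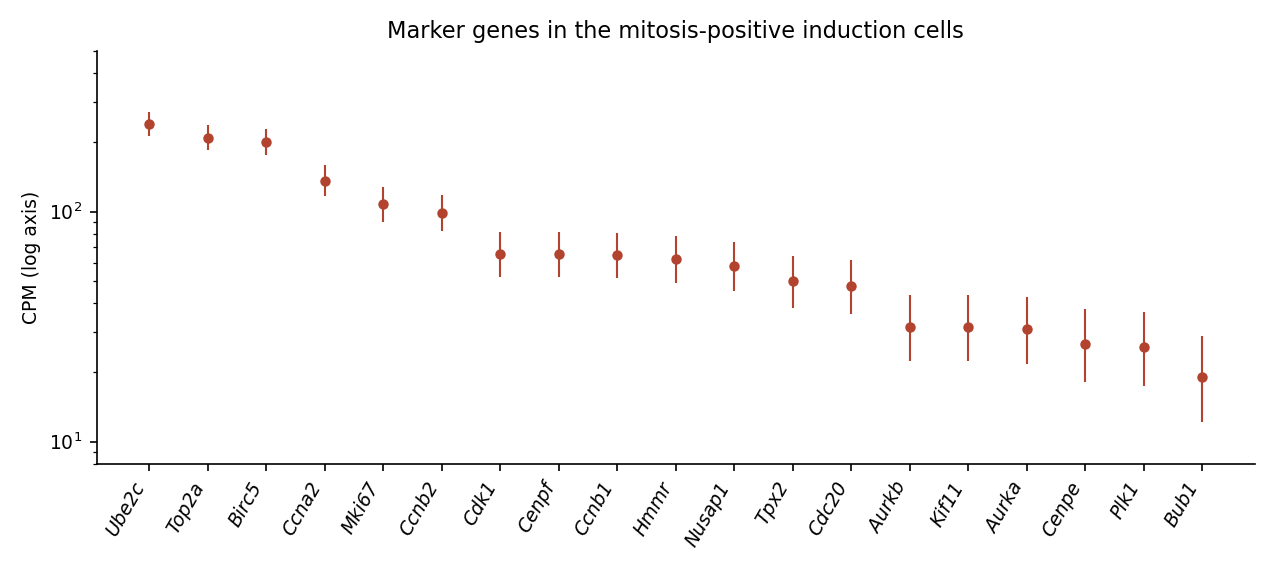
CPM (log axis) of the 19 marker genes over the 120 mitosis-positive induction cells, with exact Poisson 95% intervals for counting error. The genes run from Ube2c at 240.5 CPM to Bub1 at 19.1 CPM; they chose the cells, so the plot is a description.

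Pairs of marker genes overlapped to different degrees. Among mitosis-positive cells, all 32 with a Kif11 UMI and 31 of the 32 with an Aurkb UMI also held Top2a. Top2a and Ube2c were held together by 68 cells. In contrast Cdk1 and Ccnb1 shared 22 cells, while 24 held Cdk1 alone and 23 Ccnb1 alone. The rule itself raises such overlap, because it leaves out cells with a single marker gene. That gene was Kif11 in 8 induction cells, Aurkb in 1, Cdk1 in 10 and Ccnb1 in 4. At these levels a single missing UMI decides such a count.

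**Figure D2:**
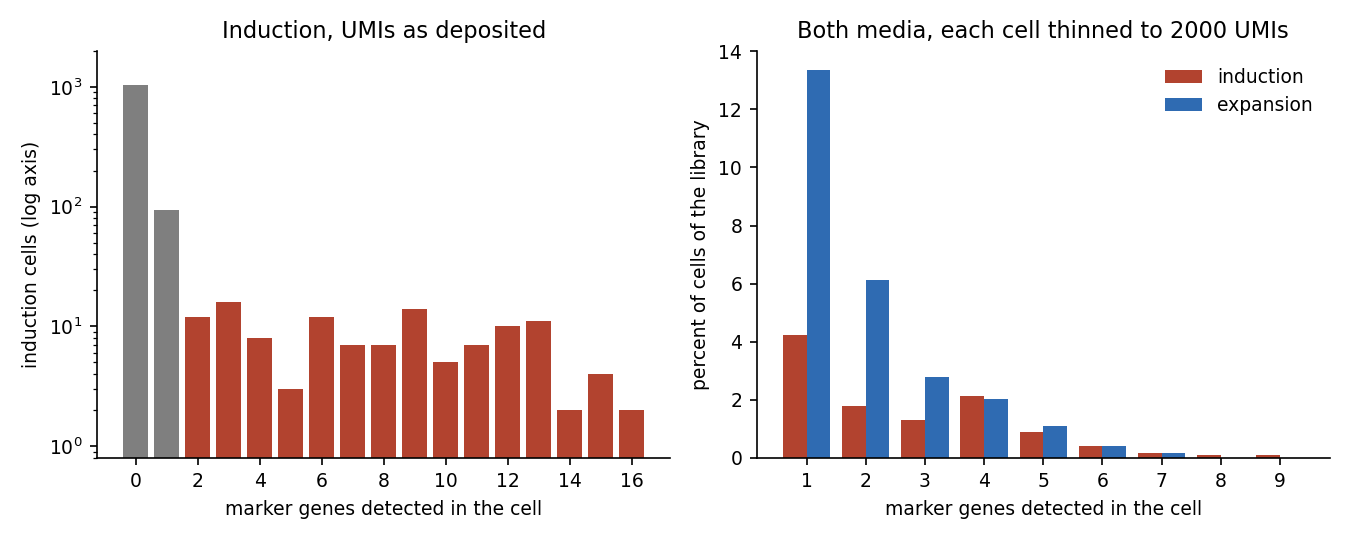
Left, number of induction cells (log axis) by the number of the 19 marker genes detected, with mitosis-positive cells in red and the other cells in grey. Right, percent of each library's cells by number of marker genes after thinning to 2000 UMIs; cells with 1 gene were 52 in induction and 159 in expansion, while cells with 4 genes were 26 and 24.

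At the edge of the rule, cells differed in cell cycle and enzyme genes but not in every list. The 12 cells with exactly 2 marker genes held 1155 CPM of the other G2 and mitosis genes, against 571 CPM in the 93 cells with 1 gene and 462 CPM in mitosis-negative cells. Their summed replication genes stood at 716 CPM, against 420 and 345 CPM. Among the 93 cells with 1 gene, Top2a and Birc5 were the gene in 16 cells each, and Cdk1 in 10. Hepatocyte enzyme genes summed to 6329 CPM with 2 marker genes and 11805 CPM with 1, so the cells with 1 gene lay near the mitosis-negative cells (13246 CPM). In the 16 cells with 3 marker genes they summed to 8215 CPM. Targets of the glucocorticoid receptor stood at 16451 CPM with 2 marker genes, 16956 with 1 and 16607 with 0. Acute phase genes stood at 41705, 46283 and 45649 CPM, and secreted protein genes at 75801, 112062 and 110474 CPM.

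Across the transcriptome, 8695 genes with at least 5 CPM over all kept induction cells were compared, the marker genes left out. A gene was called when its levels differed by a factor of 1.5 or more and the exact conditional binomial interval of the ratio excluded 1. By this rule 1152 genes (13.2%) were higher and 558 (6.42%) lower in mitosis-positive cells, and the median gene lay at a log2 ratio of 0.11. Scaled to that median gene, the counts were 844 higher and 780 lower, so the balance of the directions depends on the scaling. With each cell thinned to 2000 UMIs they were 642 and 315.

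G2 and mitosis genes that the rule did not use were higher almost throughout. Of 30 measured, 28 were called higher and none lower, with a median log2 ratio of 4.12 against 0.11 for all genes. The size of that median depends on the CPM minimum. The minimum counts mitosis-positive cells too, so genes such as Pbk, described below, pass it through those cells. The median was 1.93 over 13 genes at 20 CPM or more, and 5.58 over all 62 without a minimum. Of the 62 found in the files at any level, 60 had an interval above a ratio of 1. The list summed to 3342 CPM in mitosis-positive and 462 CPM in mitosis-negative cells. The background called higher was 13.2% of genes.

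Cks1b and Cks2, small subunits that bind cyclin-dependent kinases, stood at 172 and 199 CPM against 32.1 and 55.3 CPM, log2 ratios of 2.43 (2.15 to 2.70) and 1.85 (1.61 to 2.08). Some members were nearly confined to the mitosis-positive cells. Ect2, the exchange factor that drives cytokinesis, had 46 UMIs against 2, a log2 ratio of 7.11 (5.18 to 10.20). Its partner Racgap1 had 62 UMIs against 4 (log2 ratio 6.54, 5.12 to 8.46). Pbk, a mitotic kinase, had 64 UMIs in mitosis-positive cells and none in the 1032 mitosis-negative cells. The median above is unchanged with Pbk at the lower bound of its interval.

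The transcription factors of the mitotic wave followed the same pattern at low levels. Foxm1 had 40 UMIs in mitosis-positive cells and 2 in mitosis-negative cells, a log2 ratio of 6.91 (4.96 to 10.01), and Mybl2, which encodes B-Myb, had 20 against 1 (6.91, 4.27 to 12.29). Both lie below 5 CPM over all induction cells. The tubulin Tubb4b was higher at 264 against 116 CPM, with a log2 ratio of 1.19 (0.99 to 1.37). Both measured members that were not called are Tuba1c and Pttg1. Tuba1c stood at 69.9 and 62.5 CPM and Pttg1 (securin) at 30.8 and 22.7 CPM. Psrc1 was called at the low end, at 45.8 against 25.2 CPM.

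DNA replication genes were higher as well, at smaller ratios. Of 37 measured, 36 were called higher, none lower, with a median log2 ratio of 2.59, and the list summed to 1990 against 345 CPM. This median too moved with the CPM minimum, to 1.54 over 7 genes at 20 CPM or more and 2.96 over all 62 without a minimum. Rrm2, a subunit of the enzyme that makes deoxynucleotides, stood at 177 against 6.63 CPM, a log2 ratio of 4.74 (4.28 to 5.22). The DNA ligase Lig1 stood at 48.3 against 1.52 CPM and the helicase subunit Mcm5 at 29.1 against 1.11 CPM. The replication clamp Pcna stood at 37.4 against 8.71 CPM, a 4.30-fold difference. Rfc2, a subunit of the clamp loader, stood at 48.3 against 23.9 CPM and was called at a ratio of 2.02. Ung, which removes uracil from DNA, stood at 11.7 and 7.46 CPM and was not called.

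Replication transcripts were unevenly spread over the mitosis-positive cells. As deposited, a cell held between 0 and 47 of the 62 replication genes, with a median of 12.5. After thinning to 2000 UMIs, 66 of 120 (55.0%, 45.7 to 64.1%) held at least 3, against 41 of 1019 mitosis-negative cells (4.02%, 2.90 to 5.42%). At least 3 other G2 and mitosis genes were held by 95 of 120 (79.2%) and 39 of 1019 (3.83%). Cells with 2 to 4 marker genes had a median of 1 replication gene after thinning, and those with 5 to 8 or with 9 or more a median of 4. The mitosis-negative group thus still contained some cells with replication transcripts.

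Chromatin factors that supply dividing cells were higher in the main. Of 16 measured, 12 were called higher and 1 lower (median log2 ratio 1.16). H2afz, the histone variant H2A.Z, stood at 1613 against 406 CPM, a log2 ratio of 1.99 (1.91 to 2.07), and was found in all of the mitosis-positive cells and 87.8% of the mitosis-negative. Stmn1 (stathmin, which destabilizes microtubules) stood at 201 against 14.2 CPM, Hmgn2 at 156 against 22.4 and Tmpo at 101 against 22.0 CPM. The variant histones H3f3a and H3f3b were not called, at 503 and 435 CPM and at 1537 and 1256 CPM. Hist1h2bc was the list's called gene in the other direction, at 110 against 179 CPM, and 10 of the 26 listed genes, most of them replication-linked histones, were below 5 CPM.

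Among genes of at least 50 CPM outside the rule, the highest ratio belonged to the tubulin Tuba1b. It stood at 552 against 89.6 CPM, a log2 ratio of 2.63 (2.47 to 2.78), and Tubb5 at 969 against 251 CPM (1.95, 1.84 to 2.06). Tuba1 genes are near-identical, so reads can be split among them. Ube2s, which extends ubiquitin chains for the anaphase-promoting complex, stood at 292 against 66.6 CPM and Hjurp, the chaperone of centromeric histone, at 152 against 34.8 CPM. Others of the 12 were Dek, Anp32b and Arl6ip1, at log2 ratios of 1.67, 1.44 and 1.44. Bex1 stood at 310 against 96.5 CPM. The intermediate filament gene Vim stood at 374 against 126 CPM, a log2 ratio of 1.57, which was 0.23 and uncalled within the cluster that holds most mitosis-positive cells (cluster 6, described below), and -0.07 in expansion medium.

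**Figure D3:**
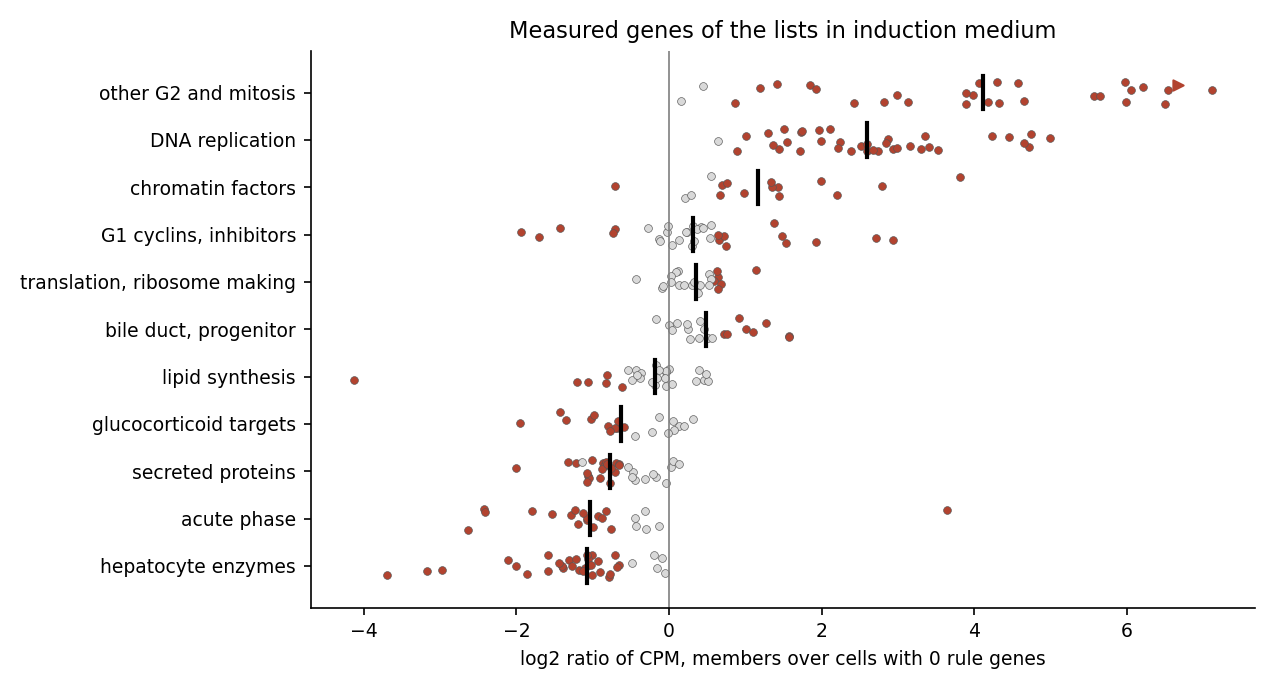
Log2 ratio of CPM in mitosis-positive over mitosis-negative induction cells for each measured gene of 11 lists, with called genes in red, uncalled genes in grey and the list median as a black bar; the arrow is Pbk, drawn at the lower bound of its interval. The medians run from 4.12 for other G2 and mitosis genes to -1.08 for hepatocyte enzymes.

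G1 regulators were mixed. Of 32 measured, 10 were called higher and 5 lower, where 13.2% and 6.42% of all genes were. The median log2 ratio was 0.32. The CPM minimum counts mitosis-positive cells here too. At 20 CPM or more 5 of 22 were called higher and 4 lower, at a median of 0.18. When mitosis-negative cells were weighted to the same spread of UMIs per cell, 7 were called higher and 5 lower, at a median of 0.01. In that depth-weighted comparison 14.1% of all genes were called higher and 5.28% lower. Ccne1 and Ccne2, the E cyclins that start S phase, stood at 19.1 against 3.18 CPM and at 7.49 against 0.69 CPM. Cdk2, their kinase, stood at 15.8 against 4.15 CPM, and the pocket protein gene Rbl1 at 23.3 against 3.04 CPM. Ccnd1, the mitogen-induced D cyclin, stood at 800.5 against 506 CPM, a log2 ratio of 0.66 (0.56 to 0.76). Its call was lost with the depth-weighted comparison (0.42), with every cell at equal weight (0.51) and with thinned cells (0.51). It was also lost when scaled to the median gene (0.55), among cells with Y-linked UMIs (0.54) and without the cluster led by S100a6 (0.49). Within cluster 6 the ratio was -0.17. Among inhibitors, Cdkn2d was higher (20.8 against 3.18 CPM). Cdkn1a (p21) stood at 177 and 180 CPM with a log2 ratio of -0.02 (-0.24 to 0.19), but was called lower among cells with Y-linked UMIs, at -0.67. Cdkn1b stood at 16.6 and 11.5 CPM and Cdkn2a at 48.3 and 58.2 CPM, both uncalled, though Cdkn1b was called with the depth-weighted comparison (0.82) and with a cell filter of 1000 genes and 10% mitochondrial UMIs (0.80). The stress-induced Gadd45a (9.98 against 32.5 CPM), Gadd45b and Gadd45g, and the antiproliferative Btg2 (232 against 385 CPM), were lower. Myc, at 32.5 and 35.7 CPM, was not called.

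Hepatocyte genes were present in the mitosis-positive cells at lower levels. Alb (albumin) was detected in every mitosis-positive cell, at 11403 CPM against 20830 in mitosis-negative cells, a log2 ratio of -0.87 (-0.89 to -0.84). Of 32 measured genes of secreted proteins, 20 were called lower and none higher (median log2 ratio -0.77), where the background called lower was 6.42%. Apoa2 stood at 671 against 2702 CPM, Apoa1 at 5742 against 9854, antithrombin (Serpinc1) at 119 against 298 and plasminogen (Plg) at 77.4 against 181 CPM. Uncalled genes included transferrin, Trf, at 8696 and 9787 CPM, and Serpina1b (an alpha-1-antitrypsin) at 9291 and 9134 CPM, a gene with near-identical copies. The list summed to 77779.6 against 110474 CPM.

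Enzyme genes were lower by more. Of 35 measured, 30 were called lower and none higher, with a median log2 ratio of -1.08, and the list summed to 5730.5 against 13246 CPM. Cyp3a11, a drug-metabolizing cytochrome P450, stood at 563 against 2253 CPM, a log2 ratio of -2.00 (-2.11 to -1.89). Khk, which phosphorylates fructose, stood at 836 against 1679 CPM. Gnmt, which consumes the methyl donor S-adenosylmethionine, stood at 20.8 against 188 CPM and Bhmt, which remethylates homocysteine, at 146 against 631 CPM. The urea cycle gene Cps1 stood at 62.4 against 155 CPM and Ass1 at 3.33 against 26.1 CPM. Among genes of at least 50 CPM the lowest ratio belonged to Thrsp, a regulator of fat synthesis, at 9.15 against 161 CPM, a log2 ratio of -4.13 (-5.14 to -3.29). Others of the 12 lowest outside the enzyme list were Angptl8, which controls lipoprotein lipase, at 54.9 against 252 CPM, and Mup20, a secreted major urinary protein with near-identical relatives, at 344 against 1475 CPM. Sult1a1, a sulfotransferase, stood at 110 and 117 CPM and was not called.

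The lower enzyme level was also seen cell by cell. With every cell thinned to 2000 UMIs and the groups as deposited, enzyme genes made up a median of 1.25% of a mitosis-negative cell's UMIs and 0.55% of a mitosis-positive cell's. The 10th to 90th percentiles overlapped, at 0.35 to 2.65% and 0.10 to 1.15%, with 110 of 120 mitosis-positive cells (91.7%) below the mitosis-negative median. Medians by number of marker genes were 0.98% with 1, 0.65% with 2 to 4, 0.55% with 5 to 8 and 0.50% with 9 or more. For secreted proteins 91 of 120 cells lay below the mitosis-negative median, with medians of 7.47% and 10.35%. The thinned mitosis-positive cells still came from deeper cells, at a median of 9693 UMIs against 6574 before thinning. With the depth-weighted comparison 20 of 35 enzyme genes were called lower, at a median of -0.76.

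**Figure D4:**
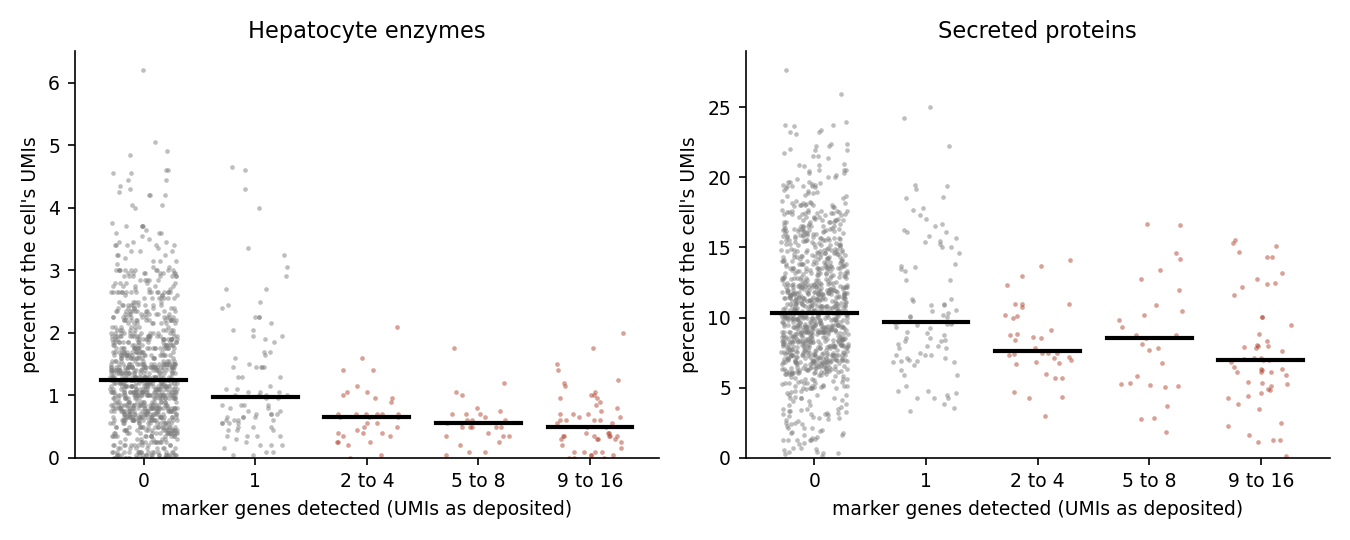
Percent of a cell's UMIs from hepatocyte enzyme genes (left) and secreted protein genes (right) after thinning to 2000 UMIs, by the number of marker genes detected as deposited; each point is a cell and the bar is the median. Enzyme medians run from 1.25% in cells with 0 marker genes to 0.50% in cells with 9 or more, with broad overlap.

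Genes of the hepatocyte transcription factors gave a mixed picture. Of 18 measured, 2 were called higher and 4 lower, or 11.1% and 22.2% against 13.2% and 6.42% of all genes, with a median log2 ratio of 0.01. Their sum stood at -0.27 (-0.36 to -0.18), while the median moved in both directions under the alternatives. It was -0.34 with thinned cells, -0.44 at 20 CPM or more and -0.40 without cluster 6. It was 0.11 with the depth-weighted comparison, 0.09 within cluster 6, 0.14 without the cluster led by S100a6 and 0.05 with every cell at equal weight. Hnf4a, the main regulator of hepatocyte identity, stood at 215 and 258 CPM (log2 ratio -0.26, -0.46 to -0.08) and was uncalled, as was Cebpb at 126 and 171 CPM. Foxa2 was called higher (32.5 against 19.2 CPM). Foxa3, Rxra and the bile acid receptor gene Nr1h4 were called lower, the last at 19.1 against 48.0 CPM. The fetal liver marker Afp had 4 UMIs in mitosis-positive cells, at 3.33 CPM, against 7.32 CPM.

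Acute phase genes, which the liver switches on in inflammation, were largely lower over all cells. Of 22 measured, 16 were called lower and 1 higher, with a median log2 ratio of -1.04. Within cluster 6 alone 5 were called higher and 2 lower, at a median of 0.19, where 6.91% of all genes were called higher and 3.45% lower. Haptoglobin (Hp) stood at 9588 against 16232 CPM. Saa1 and Saa2, 2 serum amyloid genes of near-identical sequence, stood at 140 against 751 CPM and at 54.9 against 341 CPM. Lcn2, at 6364 and 6992 CPM, and Saa3, at 6170 and 8434 CPM, were not called. A2m was the gene called higher, at 44.9 against 3.59 CPM, and its 54 UMIs came from 11 cells. Chemokine and NF-kB target genes held 4 calls higher and 2 lower of 26 (median 0.10), shares of 15.4% and 7.69% that lie near the 13.2% and 6.42% of all genes. Ccl2 stood at 618 against 279 CPM and lost its call with the depth-weighted comparison, at a log2 ratio of 0.55.

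Targets of the glucocorticoid receptor, the receptor of dexamethasone, were in part lower. Of 20 measured, 11 were called lower and none higher (median log2 ratio -0.62), where 6.42% of all genes were lower. With the depth-weighted comparison 4 of 20 were called lower, at a median of -0.33, against 5.28% of all genes. Within cluster 6, 1 was called higher and 3 lower (median 0.05), against 6.91% and 3.45% of all genes. Targets not called over all cells included Fkbp5 at 155 and 124 CPM, Per1 at 37.4 and 34.1 CPM and Sgk1 at 122 and 107 CPM. Metallothionein genes Mt1 (3010 against 4765 CPM) and Mt2 (1096 against 1645 CPM) were lower, as were Errfi1 (523 against 1038 CPM) and Igfbp1 (258 against 656 CPM). Tat, a classical hepatocyte target, stood at 103 against 165 CPM with a log2 ratio of -0.68, which was 0.072 with the depth-weighted comparison. Transcripts of the receptor, Nr3c1, were uncalled, with 59.1 CPM in mitosis-positive and 46.7 CPM in mitosis-negative cells.

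A list of 12 genes that were higher in induction than in expansion medium was mostly lower in the mitosis-positive cells, 10 of 12 called (median -1.59), but within cluster 6 it had 7 called higher and none lower (median 0.77). That list was chosen on these libraries and overlaps the enzyme list, so it is not independent evidence. Tff3 and Timp4, 2 of its members outside liver metabolism, were not called, at 242 and 318 CPM and at 146 and 189 CPM. Of 11 genes higher in expansion medium, also chosen on these libraries, 5 were called higher and 3 lower. With the depth-weighted comparison 1 was called in each direction.

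Over all cells, 13.2% of all genes were called higher and 6.42% lower. Genes of bile duct and liver progenitor cells included 8 called higher of 20 measured, with none lower (median log2 ratio 0.49). Those called were Vim, Prom1 (52.4 against 17.7 CPM), Cd44, Anxa2 (211 against 87.3 CPM), Anxa3, S100a6, S100a10 and S100a11 (523 against 309 CPM). The duct genes Sox9 (67.4 and 76.0 CPM), Spp1 (735 and 617 CPM), Krt18 (613 and 519 CPM) and Cd24a (260 and 254 CPM) were not called. With the depth-weighted comparison the list held 2 called higher and 1 lower, against 14.1% and 5.28% of all genes. Its median was then 0.03, so its difference moved with depth. Within cluster 6 none was called higher and 7 lower (median -0.55), against 6.91% and 3.45% of all genes. Without cluster 6 there were 14 higher and none lower (median 1.23), where 11.8% of all genes were called higher and 6.53% lower.

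Lipid synthesis genes held 6 called lower of 28 and none higher, where 6.42% of all genes were lower. Within cluster 6 the direction was the opposite, with 6 called higher and none lower (median 0.43). All 6 belong to the making of fatty acids and triglycerides, and include Scd1 (1192 against 2756 CPM), Fasn (182 against 324 CPM), Acaca (114 against 239 CPM), Dgat2 (331 against 581 CPM) and Thrsp, named above. Cholesterol synthesis genes such as Cyp51 (175 and 123 CPM) and Idi1 (125 and 90.8 CPM) were uncalled. With the depth-weighted comparison 3 were called in each direction. Of 22 genes of translation and ribosome making, 6 were called higher, among them Npm1 (1156 against 741 CPM), Dkc1 and Nop56, and 2 with the depth-weighted comparison. The shares of all genes called higher were 13.2% and 14.1%. Oxidative phosphorylation genes had no call among 27. Glycolysis genes had 2 called higher of 12, Ldha (633 against 387 CPM) and Slc2a1, a share of 16.7% that lies near the 13.2% of all genes.

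Receptors for the growth factors in the medium did not differ by the rule. Egfr stood at 49.9 and 59.6 CPM and Met, the HGF receptor, at 32.5 and 24.6 CPM. Among ligands and early response genes, Tgfa (57.4 against 31.2 CPM), Hbegf (23.3 against 14.2 CPM) and Etv4 (12.5 against 4.98 CPM) were called higher, while Jun and the growth hormone receptor gene Ghr (20.8 against 49.3 CPM) were lower. Of 15 measured genes 3 were called in each direction, or 20%, against 13.2% higher and 6.42% lower of all genes. With the depth-weighted comparison 2 were lower and none higher, against 5.28% and 14.1% of all genes. Fetal and imprinted genes had no call among 7. H19 stood at 760 and 535 CPM, with a UMI in 22 mitosis-positive cells, and Igf2 at 720 and 541 CPM. The log2 ratio of H19 was 0.50, and it was called higher under 7 alternatives, from 0.65 without the cluster led by S100a6 to 1.89 within cluster 6, with 1.06 in the depth-weighted comparison. Among 10 Wnt target genes the single call was Ccnd1, described above.

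To see which kinds of induction cells held mitosis genes, the cells were clustered without the genes of the 4 cell cycle lists. Of the 120 mitosis-positive cells, 80 (66.7%) fell in cluster 6, where they made up 46.2% of 173 cells (38.6 to 54.0%). That cluster was still led by proliferation-linked genes such as 2810417H13Rik, Lockd and Iqgap3, beside Reg3b and Reg3g, so leaving out the 4 lists did not remove proliferation-linked genes from the clustering. Cluster 4, led by S100a6, Sprr1a, Serpine2, Spp1 and Anxa3, held 15 mitosis-positive cells of 99 (15.2%). Clusters 1 and 5 held 13 of 264 and 9 of 223. Cluster 2, led by the acute phase genes Saa2, Saa1 and Orm1, held 2 of 327 (0.612%) and cluster 3, led by Thrsp and G6pc, held 1 of 159 (0.629%).

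Within cluster 6 the lower level of enzyme genes was not seen. There enzymes summed to 6229.9 CPM in the mitosis-positive cells and 6639.6 CPM in the 73 mitosis-negative cells, and the list median was 0.45, with 8 of 35 genes called higher and 1 lower, where 6.91% of all genes were called higher and 3.45% lower within the cluster. Cyp3a11 stood at 623 against 428 CPM and Alb at 12316 against 14520.5 CPM. Secreted proteins summed to 85012 against 100975 CPM, with a list median of -0.13. With cluster 6 left out the enzyme median was -1.36. Replication genes differed inside the cluster too, at 2123 against 485 CPM. In cluster 4 enzymes were low in both groups, at 1631 CPM in mitosis-positive and 1128 CPM in mitosis-negative cells, and in cluster 5 they stood at 7139.7 and 15549 CPM. Clusters 1, 2 and 3 held 13, 2 and 1 mitosis-positive cells. Enzymes there stood at 8547 and 10468, 13189 and 17383, and 12596 and 17947 CPM. Most mitosis-positive cells, those of cluster 6, thus shared a low enzyme level with cells of that cluster that held no marker gene. Of the latter, 8 of 71 (11.3%) held at least 3 replication genes after thinning, against 4.02% of all mitosis-negative cells. Whether they were cycling below detection was not tested. The clusters were built from these cells' own genes, hepatocyte genes included, so levels between clusters are no separate evidence.

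**Figure D5:**
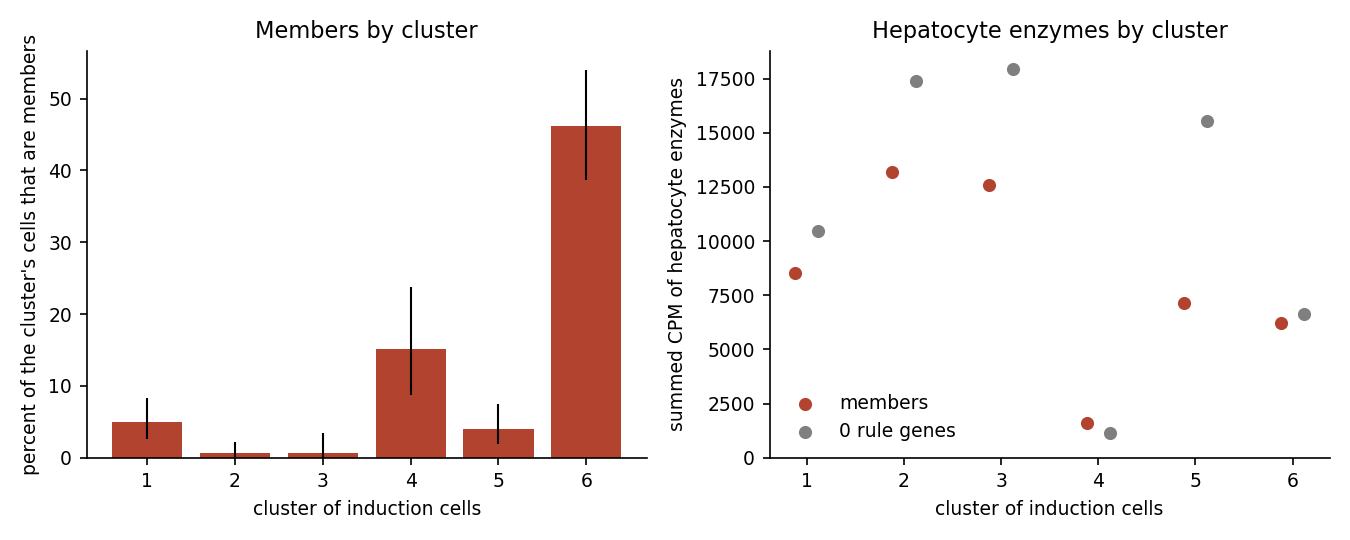
Left, percent of each cluster's cells that were mitosis-positive, with exact 95% binomial intervals. Right, summed CPM of hepatocyte enzyme genes in mitosis-positive (red) and mitosis-negative (grey) cells of each cluster. Cluster 6 held 46.2% mitosis-positive cells and similar enzyme levels in both groups, and cluster 2 held 0.612%.

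The culture held cells of both sexes by their transcripts. Cells with an Xist UMI and no Y-linked UMI were mitosis-positive in 54 of 412 cases (13.1%, 10.0 to 16.8%), and cells with a Y-linked UMI and no Xist UMI in 42 of 503 (8.35%, 6.08 to 11.1%). After thinning the shares were 10.3% (7.56 to 13.7%) and 5.18% (3.41 to 7.50%). In summed counts Xist stood at 1166 against 556 CPM and the Y-linked Ddx3y at 39.1 against 68.3 CPM. The enzyme median was -1.45 among Xist cells and -0.76 among Y-linked cells, and secreted proteins stood at -0.94 and -0.42. The number of animals behind each sex is not given, so sex and animal cannot be told apart.

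Markers of other liver cell types were sparse in both groups. T and NK cell markers (10 genes) and B cell markers (7 genes) had no UMI in either group. Macrophage markers summed to 2.50 CPM in mitosis-positive and 0.55 CPM in mitosis-negative cells, with 9 of 12 genes at 0 in the former. Endothelial markers summed to 47.4 and 30.5 CPM, nearly all from Egfl7, with 7 of 10 at 0 in mitosis-positive cells. Stellate and fibroblast markers summed to 239 and 181 CPM, mainly from Rgs5 (220.5 and 168 CPM), with 9 of 12 at 0 in mitosis-positive cells. Cholangiocyte markers summed to 103 and 100.5 CPM. Hepatocyte markers were detected for 10 of 10 genes and summed to 49993 and 74141 CPM, so that the mitosis-positive cells as a group carried the hepatocyte label. Single cells varied. After thinning, the 10th to 90th percentiles of secreted protein UMIs were 3.68 to 13.4% in mitosis-positive and 5.65 to 16.95% in mitosis-negative cells. Cells at 0.15% occurred in both groups, 1 of them with 14 marker genes. Scrublet, a doublet caller, marked 2 induction cells, of which 1 was mitosis-positive. It marked under 0.5% of cells and therefore gives little information on doublets. Both Xist and Y-linked UMIs were held by 4 of 120 mitosis-positive and 17 of 1032 mitosis-negative cells. In the deeper expansion library both were held by 275 of 1191 cells, and by 142 of the 548 that met the rule. Whether doublets or free RNA account for such cells was not tested. Of 4 cell barcodes shared with the expansion library, 1 belonged to a mitosis-positive cell.

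Expansion medium held more cells that met the rule, but how many more depended on the depth and on the number of marker genes asked for. As deposited, 548 of 1191 expansion cells met it (46.0%), at a median of 23184 UMIs per cell against 6765 in induction. Thinned to 2000 UMIs, the shares were 12.6% (10.8 to 14.6%) in expansion and 6.82% in induction, a ratio of 1.85 (1.43 to 2.38). At 1000 UMIs they were 6.63% and 4.18%, and at 4000 UMIs 19.6% and 9.12%. With at least 3 marker genes the thinned shares were 6.47% and 5.04%, and with at least 5 they were 1.68% (1.03 to 2.58%) and 1.62% (1.00 to 2.50%), or 20 cells in each library. At this thinned depth the excess in expansion therefore lay in cells with few marker genes detected. Thinning removes more UMIs from the deeper expansion cells. As deposited, at unequal depth, 176 expansion cells held 9 or more marker genes, against 55 in induction. The 130 thinned expansion cells with 2 to 4 marker genes held a median of 5 other G2 and mitosis genes, against 1 in expansion cells with 0. In induction these medians were 6 and 1. Cells with 2 and 3 marker genes after thinning numbered 73 and 33 in expansion and 22 and 16 in induction, and cells with 1 gene numbered 159 and 52. No cell type that should lack mitosis transcripts was present to measure free RNA, whose part in these low counts was not tested.

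Other genes were set side by side in the 2 media with cells grouped at the same thinned depth. Thinning keeps a smaller part of an expansion cell's UMIs, so that cells with 0 marker genes after thinning still held 80.6 CPM of the 19 genes over all their UMIs in expansion and 14.3 CPM in induction, and the groups are less cleanly separated in expansion. Among expansion cells enzymes summed to 1514 CPM in mitosis-positive and 1712 CPM in mitosis-negative cells, a log2 ratio of -0.18 (-0.22 to -0.14), while the same grouping in induction gave -1.22 (-1.26 to -1.18). Enzyme levels in expansion were low in both groups. Secreted proteins had log2 ratios of -0.34 in expansion and -0.53 in induction. As deposited, where 440 of 8680 genes (5.07%) were higher and 73 (0.841%) lower in expansion, no enzyme or secreted protein gene was called. Other G2 and mitosis genes summed to 3153 against 571 CPM in expansion and 3959 against 483 CPM in induction by the thinned grouping. Whether the media differ in these ratios could not be tested with 1 library each.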

How the data were processed

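The deposited matrices hold raw UMI counts per gene and cell barcode, made by the authors with Cell Ranger 2.1.1 on mm10, per the submitters' processing notes. Barcodes numbered 1275 in induction and 1208 in expansion, of which 30 and 17 failed the cell filter. Counts were summed per group and divided by the group's total. Intervals (95%) were exact Poisson, exact Clopper-Pearson or exact conditional binomial, computed with scipy 1.17.1, and cover counting error only. Cells were thinned with a fixed random seed. Doublets were sought with Scrublet in scanpy 1.11.5 and kept. Induction cells were clustered on 2000 variable genes, without the genes of 4 cell cycle lists, with 20 principal components, 15 neighbours and Leiden resolution 0.6. The depth-weighted comparison weighted mitosis-negative cells to the mitosis-positive cells' spread over 10 UMI bins. Calculations were tested on simulated data. The cells, gene lists and thresholds were chosen with earlier results of these data known. Genes named were the 19 marker genes, the 4 most abundant and 3 largest ratios per direction of each list, the 12 largest per direction at 50 CPM or more (without mitochondrial and ribosomal genes and unnamed models), genes of the media and sex lists, and a fixed set of cell cycle, liver and receptor genes. Others, such as S100a6 and the leading genes of clusters, were chosen after their values were seen. Of 28692 gene IDs, 28339 matched GENCODE M21, which was used for names and positions. Alternatives changed the cell filter, the rule, the comparison cells, weighting, scaling, the CPM minimum and the cells used. Some genes that this rule names are not reported here.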

Additional observations from a re-analysis of the deposited data

Results flagged for a closer look

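Gene lists whose summed level in mitosis-positive over mitosis-negative cells lay on opposite sides of 0 in the 2 media were sought, leaving out the lists of marker genes, sex, media and cell types. The counting intervals had to lie on opposite sides both as deposited and with cells grouped after thinning, and the media had to differ by 1.5-fold or more, a limit set after the data were seen. By this 2 lists were kept. Bile duct and progenitor genes stood at a log2 ratio of 0.43 in induction and -0.17 in expansion. Fatty acid and cholesterol synthesis genes stood at -0.65 in induction and 0.21 in expansion. The difference between media was not tested, since each had 1 library, and the groups compared here are as deposited, at unequal depth. Among lists left out, stellate and fibroblast markers stood at 0.40 and -0.22.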

How the results depend on the processing

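No paired analysis was possible because each medium had 1 library, and no replicate could be left out. The share of mitosis-positive cells was 6.75% with at least 5 marker genes and 6.82% after thinning. The expansion over induction ratio of 1.85 was 1.28 with at least 3 genes, 1.03 with at least 5 and 4.77 without thinning. Counts of higher and lower genes were 642 and 315 after thinning, 617 and 357 among cells with Y-linked UMIs, 541 and 255 at 2-fold, and 601 and 300 within cluster 6, where fewer UMIs or a stricter limit entered. At 20 CPM or more 520 were higher. The median of other G2 and mitosis genes was 5.58 without a CPM minimum and 1.93 at 20 CPM, and that of replication genes 2.96 and 1.54, and 1.98 within cluster 6. The secreted protein median was -0.94 among Xist cells, -0.42 among Y-linked cells, -0.13 within cluster 6 and -1.03 without it. The enzyme median was -0.76 depth-weighted, -1.45 among Xist cells, -0.76 among Y-linked cells, 0.45 within cluster 6 and -1.36 without it. Over 41 named genes, 647 of 695 values kept direction and call, 16 lost the call, 13 gained it and 19 turned. Depth-weighted, Tat was 0.072, Spp1 -0.64 and S100a6 -0.30, and S100a6 was also -0.30 among Y-linked cells. Within cluster 6, Thrsp was 0.45, Gnmt 0.30, Sult2a1 0.48, Saa2 0.21, Serpina3k 2.88, Bhmt 0.37, Sprr1a 0.30, Apoa2 0.82, Cyp3a11 0.54, Tat 1.42, Ccnd1 -0.17, Spp1 -1.37, S100a6 -1.29 and Ccl2 -1.61. Without the S100a6-led cluster Sprr1a was 1.42. The cluster settings were chosen after seeing the data, and apart from the smaller numbers of cells or genes the cause was not tested. Depth limits genes of a few UMIs, such as Mybl2 and Hpd.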
